A study of Mus musculus with 12 samples.

Results

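The enzymes and remodelers that write, erase and reposition nucleosomes were followed in Lgr5-GFP+ stem cells of the mouse intestine from mice with 2, 1 or no floxed copies of Apc. The members were chosen by gene symbol, as the genes whose symbol begins with Kdm, Kmt, Kat, Hdac, Sirt or Chd and a digit, with Smarc and a letter from a to e, or with Arid and a digit from 1 to 5. Of 14499 gene symbols in the tables, 75 matched, 74 of them reached 1 FPKM in 4 libraries, and 72 of the 12962 symbols tested were members. Expression was measured as FPKM, fragments per kilobase of transcript scaled to the mapped fragments of the library, in 12 RNA-seq libraries made from sorted cells. Of the 3 groups, Apc_KO mice were ApcFlox/Flox, Apc_HET mice were ApcFlox/+ and Apc_WT mice were Apc+/+, with 4 libraries each. Every mouse was C57BL/6, carried Lgr5-CreERT2-ires-eGFP, and received 1 tamoxifen injection followed by tamoxifen diet for 5 days, with collection on day 15. Tamoxifen and the Cre allele are therefore shared by the Apc_WT animals, and Cre is driven from Lgr5, so that recombination was set to begin in Lgr5-expressing cells. The labels do not say how many animals stand behind a library, and p-values measure the spread between these libraries.

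Histone lysine demethylases (Kdm) remove methyl groups and methyltransferases of the Kmt class add them, while acetyltransferases (Kat) are opposed by the zinc-dependent deacetylases (Hdac) and the NAD-dependent sirtuins (Sirt). Smarc genes encode ATPases and core subunits of SWI/SNF (BAF and PBAF) and related remodelers, Chd genes encode chromodomain helicases such as the motor of the NuRD complex, and Arid genes encode proteins with an AT-rich interaction domain, some of which are BAF or PBAF subunits. APC holds together the machinery that sends beta-catenin to degradation. Without APC, beta-catenin accumulates and acts with TCF/LEF factors on Wnt target genes, and loss of APC in intestinal stem cells is a known origin of adenomas.

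The 3 members that reached no test were Kdm4dl, which was under 1 FPKM in too many libraries, Kdm1b, for which an estimate had failed, and the joined symbol Chd2,RP23-32A8.1, whose assembled locus differed between the genotypes. Of the 72 tested members, 49 came from a single assembled locus, and several loci were summed for the others. The locus labelled Kdm6b,Tmem88 (GRCm38, chromosome 11, 69395540 to 69396740) covered 0% of Kdm6b and lay over Naa38, the UTR of Tmem88 and an exon of Cyb5d1, so its values cannot be read as Kdm6b. The loci of Arid1b and Smarca1 covered 0.150% and 2.07% of those genes, both at the 3′ end, and their values stand for those stretches. The locus of Hdac10 was joined with its neighbour Tubgcp6.

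Libraries differed in ways that touch the members. Total FPKM ran from 391710 to 518428, and the depth relative to Apc_WT replicate 1, read from the steps of low values, was lowest at 0.369 in Apc_WT replicate 2. Of 8 genes that define the intestinal epithelium, 5 were called lower and 1 higher in Apc_KO than in Apc_WT. Epcam was at 649 FPKM or more in every library and was not called, while Vil1 (-1.29 on the log2 scale) and Cdx2 (-1.11) were among those that fell. Of 8 stem cell genes, 3 were called higher and 1 lower in Apc_KO than in Apc_WT. Lgr5 itself averaged 41.0 ± 16.8 FPKM in Apc_KO, 26.4 ± 4.52 in Apc_HET and 23.8 ± 4.35 in Apc_WT (SD, n = 4 each). Olfm4, another stem cell gene, was at 106, 674, 702 and 81.7 FPKM in Apc_KO replicates 1 to 4, against 5019 to 5782 FPKM in Apc_WT libraries, so Apc_KO replicates 1 and 4 stood apart from replicates 2 and 3. The same pair was low for Top2a, a gene of dividing cells, at 49.8 and 53.8 FPKM, against 141 and 147 FPKM in replicates 2 and 3.

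Apc averaged 13.8 ± 3.18 FPKM in Apc_KO, 11.0 ± 1.11 in Apc_HET and 8.89 ± 1.64 in Apc_WT (SD, n = 4 each). The whole-gene value was not lower in the recombined groups, with a log2 difference of 0.58 between Apc_KO and Apc_WT (exact permutation test, two-sided p = 0.0857, where the smallest p that 4 against 4 allows is 0.0286). In the fit over all genes, limma called the Apc_KO level of Apc above that of Apc_WT (adjusted p = 0.0142). Gene-level FPKM does not show the loss of a floxed part, so this value does not check the genotype.

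Against Apc_WT, Apc_KO cells had more RNA of many chromatin regulators and less of few. Of 72 members, 31 were called higher (adjusted p under 0.05), 2 were called lower and 39 were not called. Among all 12962 symbols tested, 27.9% were called higher and 17.7% lower, against 43.1% and 2.78% of the members. Libraries of the 2 genotypes did not overlap for 23 members higher in Apc_KO and 2 lower, beside 24.3% and 16.0% of all symbols. The median log2 fold change on the log2(FPKM + 1) scale was 0.29 over the members and 0.12 over all symbols. With library size factors, which move the median of all symbols to 0.03, 20 members were called higher and 4 lower, and the members' median was 0.20. In that fit 27.8% of the members and 23.1% of all symbols were called higher, a smaller gap than without rescaling. Under quantile normalization the median of all symbols was -0.02, and 22 members were called higher and 3 lower, with 30.6% of the members and 21.3% of all symbols called higher. In all, 18 of the 31 higher members kept the call in each of 26 alternatives in which they were tested. Markers of enterocytes, goblet cells and enteroendocrine cells moved the other way in the same comparison. All 10 enterocyte genes, 7 of 8 goblet cell genes and 6 of 6 enteroendocrine genes tested were called lower in Apc_KO, with medians of -3.04, -3.37 and -2.995 on the log2 scale. Summed FPKM ran from 206 to 351 in Apc_KO and 1496 to 4038 in Apc_WT for enterocytes, from 211 to 482 in Apc_KO and 1489 to 2261 in Apc_WT for goblet cells, and from 19.1 to 111 in Apc_KO and 263 to 1117 in Apc_WT for enteroendocrine cells. Of 5 Paneth cell genes 1 was called higher and 2 lower, and of 4 tuft cell genes 1 was called higher and 3 lower. The Paneth sums overlapped, at 1269 to 6102 FPKM in Apc_KO and 5413 to 9263 in Apc_WT. The tuft sums were higher in Apc_KO, at 59.0 to 115 FPKM against 24.3 to 31.0 in Apc_WT. The part of these cells in the members' levels was not tested. These RNAs were measured in bulk, so fewer cells of a type and less RNA per cell cannot be told apart.

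**Figure D1:**
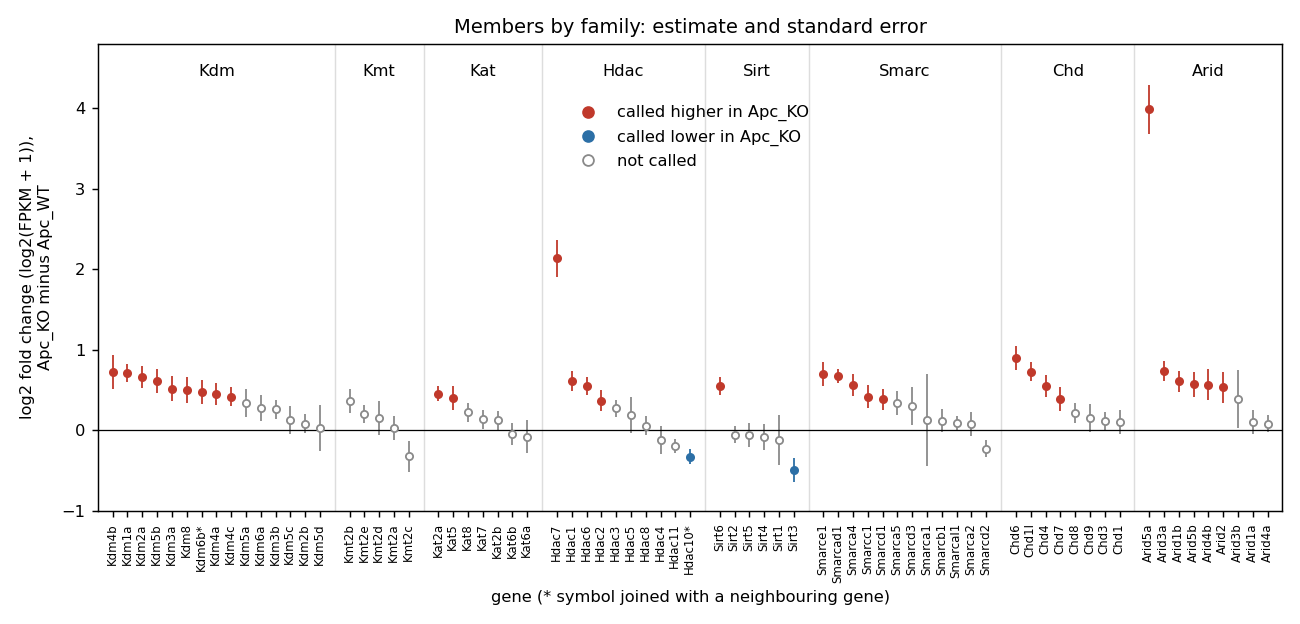
Log2 fold change on the log2(FPKM + 1) scale, Apc_KO minus Apc_WT, for the 72 tested members in 8 families. Points are limma estimates, bars are standard errors, filled points passed an adjusted p of 0.05. Most of the filled points lie between 0.36 and 0.90, Hdac7 stands at 2.13 and Arid5a at 3.99, and only Sirt3 and the Hdac10 locus are filled below 0.

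The calls are given by family, beside 27.9% of all symbols called higher, and each family held only 5 to 15 tested members. Called higher were 9 of 15 Kdm symbols (8 of 14 without the Kdm6b,Tmem88 locus), 6 of 9 Arid genes, 4 of 8 Chd genes and 5 of 12 Smarc genes. So were 4 of 10 Hdac genes, 2 of 7 Kat genes, 1 of 6 sirtuins and 0 of 5 Kmt genes. Kat, at 28.6%, lay near the share of all symbols, and Sirt, at 16.7%, and Kmt lay below it. The Arid count includes Arid3a, which passed the filter only through the Apc_KO libraries. The median log2 fold changes were 0.56 for Arid, 0.45 for Kdm (0.43 without that locus), 0.32 for Smarc, 0.30 for Chd, 0.23 for Hdac, 0.15 for Kmt, 0.13 for Kat and -0.07 for Sirt. With size factors these medians kept their signs. The counts called higher were then 5 Kdm, 4 Arid, 3 Chd, 3 Smarc, 3 Hdac, 1 Kat, 1 Sirt and 0 Kmt, beside 23.1% of all symbols. No test of the difference between families was made.

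The largest change of any member was that of Arid5a, which encodes an AT-rich interaction domain protein known in immune cells to bind and stabilise inflammatory mRNAs. Arid5a was at 92.6, 47.4, 40.5 and 52.8 FPKM in Apc_KO libraries, 5.68, 3.69, 7.09 and 3.30 FPKM in Apc_HET libraries and 3.97, 1.27, 3.33 and 2.25 FPKM in Apc_WT libraries. All 4 Apc_KO libraries lay far above the other 8. The means of 58.3 ± 23.4 and 2.70 ± 1.19 FPKM (SD, n = 4 each) in Apc_KO and Apc_WT gave a difference of 3.99 ± 0.31 on the log2 scale (SE, adjusted p = 7.69e-07). Arid5a was among the lowest members in Apc_WT, and in Apc_KO its mean lay between those of Kdm1a at 63.0 ± 9.26 and Hdac1 at 49.3 ± 9.20 FPKM, with overlapping libraries. The value is a sum of 4 loci.

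The 250 bases before the RefSeq start of Arid5a are shown because it moved most, and those of Kdm8, a jumonji-domain protein, because it was the only member called higher whose window held a core TCF/LEF motif. The motifs searched were CTTTGAA and CTTTGAT on both strands, and capitals mark a match. Both windows lie on the + strand of GRCm38.p6, at chr1:36307483-36307732 for Arid5a and chr7:125444370-125444619 for Kdm8.
Arid5a: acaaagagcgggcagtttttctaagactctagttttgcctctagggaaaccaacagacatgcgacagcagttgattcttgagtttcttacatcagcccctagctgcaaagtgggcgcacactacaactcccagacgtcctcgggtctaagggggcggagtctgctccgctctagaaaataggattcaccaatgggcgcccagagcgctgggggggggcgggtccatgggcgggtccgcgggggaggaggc
Kdm8: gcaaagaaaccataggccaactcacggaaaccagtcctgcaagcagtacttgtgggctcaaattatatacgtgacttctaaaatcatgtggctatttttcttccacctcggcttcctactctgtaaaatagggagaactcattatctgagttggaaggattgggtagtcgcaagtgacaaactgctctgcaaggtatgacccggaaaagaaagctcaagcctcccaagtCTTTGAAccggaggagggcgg
The Arid5a window held neither motif, and the Kdm8 window held CTTTGAA near its 3′ end. Of 32851 mouse windows of this length, 4.46% held CTTTGAA and 3.21% held CTTTGAT. For the members, 75 windows of 55 genes were found, of which 1 held CTTTGAA (Kdm8) and 1 held CTTTGAT (Kmt2d, which was not called). A match is a run of letters and does not show that a factor binds.

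Other Arid genes changed less. Arid3a, a DNA-binding factor first known from B cells, was at 1.15, 1.72, 1.79 and 1.34 FPKM in Apc_KO libraries, against 0.369, 0.571, 0.467 and 0.573 FPKM in Apc_WT libraries, and rose by 0.74 ± 0.13 on the log2 scale (SE, adjusted p = 0.000503). It stayed at low levels in every library, although the groups did not overlap. Only its 4 Apc_KO libraries reached 1 FPKM, so it passed the filter only through the group where it was high. Its call and its lack of overlap are therefore not independent of the filter. Both are included in the 31 members called higher and the 23 without overlap. Arid5b, which guides the demethylase PHF2 to chromatin, was at 23.3, 24.4, 24.3 and 15.2 FPKM in Apc_KO libraries, against 15.1, 15.0, 13.3 and 13.1 FPKM in Apc_WT libraries, with replicate 4 of Apc_KO close to the Apc_WT range (0.57 ± 0.16, adjusted p = 0.0106). Arid4b, a partner of the Sin3 deacetylase complex, was also called higher (0.56 ± 0.19, adjusted p = 0.0298), but not under either rescaling or without Apc_WT replicate 2 or 3 or Apc_KO replicate 1. Its paralogue Arid4a was not called, at 14.6 ± 1.73 FPKM in Apc_KO and 13.7 ± 1.05 FPKM in Apc_WT.

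The paralogues Arid1a and Arid1b, alternative subunits of BAF, gave different results. Arid1a, the more abundant by FPKM, was at 42.6, 37.6, 47.7 and 27.2 FPKM in Apc_KO libraries, against 38.2, 31.2, 39.4 and 33.3 FPKM in Apc_WT libraries, and was not called (log2 fold change 0.10 ± 0.15, adjusted p = 0.618). The 3′ stretch of Arid1b was at 21.3, 17.2, 20.4 and 13.5 FPKM in Apc_KO libraries, against 11.9, 10.2, 12.3 and 11.3 FPKM in Apc_WT libraries, without overlap (0.60 ± 0.13, adjusted p = 0.00214). Arid2, the corresponding subunit of PBAF, was called higher at an adjusted p of 0.0398, a call that 14 of the 26 alternatives ended, among them leaving out any 1 library other than Apc_WT replicate 1 or Apc_KO replicate 2 or 4. The difference between the Arid1a and Arid1b changes was not tested.

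Among the Smarc subunits, Smarce1, the HMG-box subunit of BAF, was at 53.9, 57.0, 59.2 and 94.2 FPKM in Apc_KO libraries, against 38.7, 42.3, 38.3 and 38.2 FPKM in Apc_WT libraries. Apc_KO replicate 4 was far above the other 3, and the groups did not overlap (log2 fold change 0.70 ± 0.15, SE, adjusted p = 0.00241). Smarcad1, a remodeler that acts during replication and repair, was the least variable of the large changes, at 25.8, 23.7, 23.3 and 26.1 FPKM in Apc_KO libraries and 16.1, 14.3, 15.3 and 14.8 FPKM in Apc_WT libraries (0.67 ± 0.08, adjusted p = 4.01e-05). The ranges of the groups lay well apart.

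Of the paired ATPases of BAF, Smarca4 (BRG1) was at 55.6, 58.0, 66.9 and 78.0 FPKM in Apc_KO libraries, against 44.2, 37.2, 53.3 and 39.0 FPKM in Apc_WT libraries (0.56 ± 0.14, adjusted p = 0.00466). Smarca2 (BRM) was at 22.1, 16.7, 17.4 and 28.1 FPKM in Apc_KO libraries, against 19.4, 21.8, 20.5 and 16.7 FPKM in Apc_WT libraries, and was not called (0.08 ± 0.15, adjusted p = 0.705), with a sign that turned under both rescalings. Thus Smarca4 was called higher without overlap between groups, while the Smarca2 libraries of the groups interleaved. The core subunit Smarcc1 was at 33.9, 36.5, 42.6 and 26.8 FPKM in Apc_KO libraries, against 27.0, 23.7, 30.4 and 22.0 FPKM in Apc_WT libraries (0.42 ± 0.14, adjusted p = 0.0273).

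The Smarcd paralogues, which join complexes one at a time, did not move alike. Smarcd1 was at 11.8, 7.35, 9.59 and 9.09 FPKM in Apc_KO libraries, against 6.88, 6.54, 8.05 and 6.38 FPKM in Apc_WT libraries, and was called higher (0.38 ± 0.13, adjusted p = 0.0296). Smarcd2, the most abundant Smarc gene in Apc_WT, was at 59.2, 64.0, 76.4 and 55.6 FPKM in Apc_KO libraries, against 73.8, 77.0, 76.8 and 70.6 FPKM in Apc_WT libraries (-0.23 ± 0.10, adjusted p = 0.0886). It missed the threshold, although with size factors it was called lower (adjusted p = 0.0181). Smarcd3 was at 7.37, 4.07, 5.21 and 9.38 FPKM in Apc_KO libraries, against 4.30, 5.89, 4.77 and 4.70 FPKM in Apc_WT libraries, and was not called. Both rescalings ended the calls for Smarcc1 and Smarcd1. So did leaving out Apc_WT replicate 2 or 4 or Apc_KO replicate 3, for Smarcc1 also Apc_KO replicate 2, and for Smarcd1 also Apc_WT replicate 1 or Apc_KO replicate 1. The ISWI ATPase Smarca5 was at 24.4, 33.1, 35.3 and 22.0 FPKM in Apc_KO libraries, against 22.6, 20.0, 27.3 and 19.3 FPKM in Apc_WT libraries, and was not called (adjusted p = 0.0948).

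Of 8 chromodomain helicases tested, 4 were called higher, beside 27.9% of all symbols. With size factors 3 were called higher, beside 23.1% of all symbols. Chd6, a helicase linked to the response to oxidative stress, was at 25.5, 14.9, 18.8 and 23.7 FPKM in Apc_KO libraries, against 11.8, 10.4, 10.2 and 9.50 FPKM in Apc_WT libraries, the largest change of the family (0.90 ± 0.15, adjusted p = 0.000383). Chd1l (ALC1), a remodeler activated by poly(ADP-ribose), was at 19.5, 20.8, 19.4 and 26.8 FPKM in Apc_KO libraries, against 12.1, 12.1, 14.5 and 11.8 FPKM in Apc_WT libraries (0.73 ± 0.12, adjusted p = 0.000258). Neither gene had an Apc_KO library within the range of Apc_WT.

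Of the NuRD motors, Chd4 was at 109, 76.2, 90.6 and 113 FPKM in Apc_KO libraries, against 72.5, 58.8, 72.1 and 59.9 FPKM in Apc_WT libraries (0.54 ± 0.14, adjusted p = 0.00630). Chd3 was at 19.1, 17.4, 19.4 and 16.4 FPKM in Apc_KO libraries, against 14.6, 14.8, 17.7 and 19.9 FPKM in Apc_WT libraries, and was not called (0.11 ± 0.12, adjusted p = 0.464). Chd4 was thus called in separate groups, and Chd3 libraries overlapped. Chd7, the helicase mutated in CHARGE syndrome, was at 14.5, 8.26, 11.5 and 12.3 FPKM in Apc_KO libraries, against 9.43, 8.04, 8.45 and 8.10 FPKM in Apc_WT libraries. Its adjusted p of 0.0493 lay at the threshold, and 20 of the 26 alternatives ended the call, including each omission of 1 library except that of Apc_KO replicate 2.

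**Figure D2:**
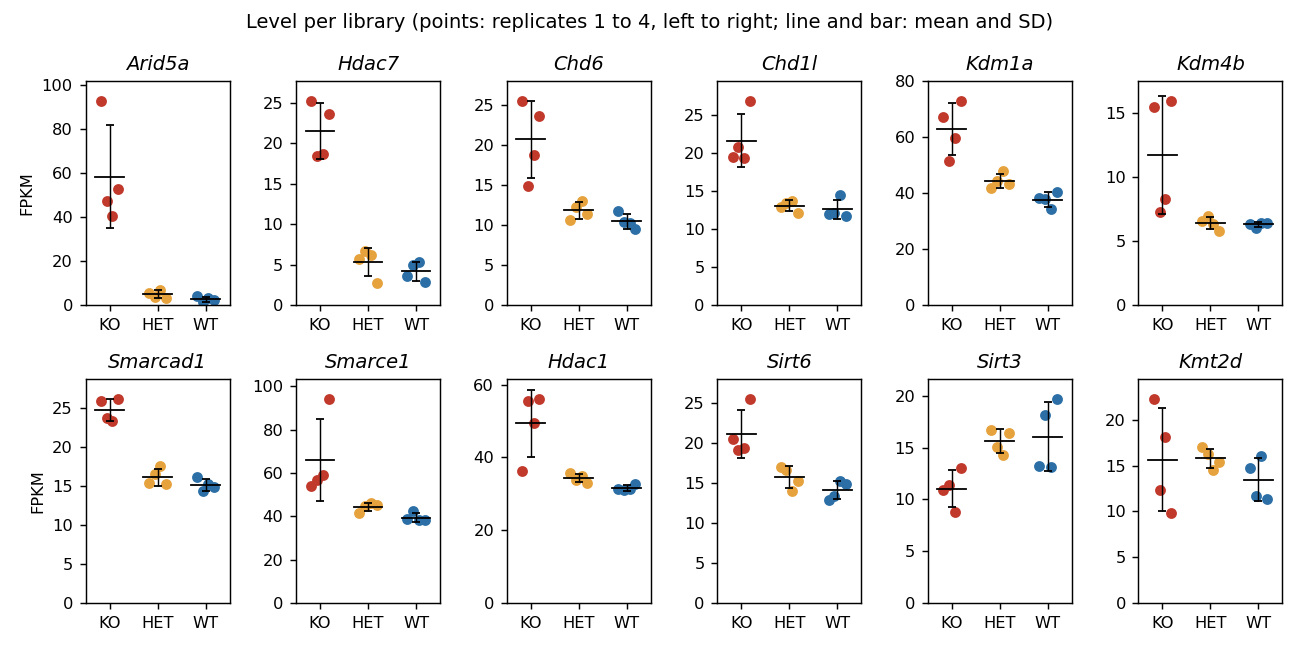
FPKM per library for 12 members, with Apc_KO, Apc_HET and Apc_WT from left to right, points for replicates 1 to 4, a line for the mean and a bar for the SD (n = 4 each). In 10 of the panels every Apc_KO library lies above every Apc_WT library, Sirt3 runs the other way, and Kmt2d overlaps. The panels are chosen members. Of all 72 tested members, 23 were higher without overlap, beside 24.3% of all symbols.

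Hdac7, a class IIa deacetylase known from endothelium and lymphocytes, rose most in its family. It was at 25.2, 18.5, 18.7 and 23.7 FPKM in Apc_KO libraries, 5.70, 6.71, 6.18 and 2.74 FPKM in Apc_HET libraries and 3.59, 4.93, 5.39 and 2.84 FPKM in Apc_WT libraries. The mean was 5.14-fold higher in Apc_KO than in Apc_WT (log2 fold change 2.13 ± 0.23, SE, adjusted p = 1.42e-05), and no Apc_KO library came near the other groups. Markers of stroma and endothelium moved with it. Of 5 such genes tested, 4 were called higher and 1 lower in Apc_KO than in Apc_WT, and the summed FPKM of the list ran from 160 to 180 in Apc_KO, 20.8 to 88.5 in Apc_HET and 8.91 to 26.5 in Apc_WT. Cdh5, an endothelial cadherin, was at 14.2 to 29.3 FPKM in Apc_KO libraries and at 0.0158 FPKM or less in Apc_WT libraries, whereas Col1a1 was listed at 0 in 2 Apc_KO libraries. Leukocyte markers summed to 1.39 to 5.83 FPKM in Apc_KO, 6.15 to 11.6 in Apc_HET and 6.83 to 8.94 in Apc_WT, with 1 of 4 tested called lower. The part of other cell types in the levels of Hdac7 and Arid5a was not tested.

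The other class IIa genes were not called. Hdac5 was at 21.8 ± 8.63 FPKM in Apc_KO and 18.2 ± 2.99 FPKM in Apc_WT, and Hdac4 at 5.47 ± 1.68 and 5.87 ± 0.691 FPKM in Apc_KO and Apc_WT (SD, n = 4 each). Of the class I deacetylases, which work in the Sin3, NuRD and CoREST complexes, Hdac1 was at 36.3, 55.6, 49.3 and 56.0 FPKM in Apc_KO libraries, against 31.2, 31.1, 31.3 and 32.7 FPKM in Apc_WT libraries (0.61 ± 0.12, adjusted p = 0.00157). Apc_KO replicate 1 was closest to Apc_WT, where the 4 libraries lay close together. Its paralogue Hdac2 was at 54.6, 82.6, 71.3 and 79.5 FPKM in Apc_KO libraries, against 57.6, 55.2, 60.5 and 48.0 FPKM in Apc_WT libraries, and its call (0.36 ± 0.13, adjusted p = 0.0384) was lost in 14 of 26 alternatives, among them the omission of any 1 library except Apc_WT replicate 3 or Apc_KO replicate 1. Hdac3, the NCoR deacetylase, was at 61.6, 79.3, 76.8 and 84.8 FPKM in Apc_KO libraries, against 59.8, 62.2, 62.9 and 63.8 FPKM in Apc_WT libraries, and lay just outside the threshold (adjusted p = 0.0510).

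Hdac6, a mostly cytoplasmic deacetylase of tubulin, was at 12.6, 11.1, 12.5 and 14.1 FPKM in Apc_KO libraries, against 8.88, 8.94, 7.82 and 7.52 FPKM in Apc_WT libraries, a log2 difference of 0.55 ± 0.11 (adjusted p = 0.00121). The joined locus of Hdac10, a polyamine deacetylase, and Tubgcp6 was at 13.4, 13.4, 13.3 and 15.5 FPKM in Apc_KO libraries, against 16.5, 19.3, 17.6 and 17.3 FPKM in Apc_WT libraries, and fell by 0.33 ± 0.09 on the log2 scale (adjusted p = 0.0116). The share of either gene in that value cannot be told apart. Hdac11, the class IV enzyme, was at 34.4 ± 2.57 FPKM in Apc_KO and 39.6 ± 3.79 FPKM in Apc_WT and was not called (adjusted p = 0.0965), but it was called lower with size factors and under quantile normalization (adjusted p = 0.0189 and 0.0318).

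The sirtuins split by gene. Sirt6, a nuclear deacetylase of H3 that represses glycolytic genes, was at 20.4, 19.2, 19.3 and 25.5 FPKM in Apc_KO libraries, against 12.9, 13.4, 15.3 and 14.8 FPKM in Apc_WT libraries, without overlap (0.54 ± 0.11, adjusted p = 0.00161). Sirt3, the main mitochondrial deacetylase, was at 10.9, 11.4, 8.80 and 13.1 FPKM in Apc_KO libraries, against 13.3, 18.2, 13.1 and 19.7 FPKM in Apc_WT libraries, and fell by 0.49 ± 0.15 on the log2 scale (adjusted p = 0.0170). The ranges of Sirt3 nearly met at 13.1 FPKM, and the call was lost without Apc_WT replicate 2 or without Apc_WT replicate 4. Sirt1, the best known nuclear sirtuin, was at 91.2, 34.5, 55.0 and 28.6 FPKM in Apc_KO libraries, against 62.0, 58.5, 33.3 and 58.2 FPKM in Apc_WT libraries, in a sum of 6 loci. Its libraries spread so widely that no difference was detectable (-0.12 ± 0.31, adjusted p = 0.775), and the sign turned when only its highest locus was used. Sirt2, Sirt4 and Sirt5 had log2 fold changes between -0.09 and -0.06 and were not called.

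Lysine demethylases, the largest family tested, gave the most calls, with 9 of 15 symbols higher beside 27.9% of all symbols. The share was larger for Arid, at 6 of 9. With size factors 5 of the 15 Kdm symbols were called higher, beside 23.1% of all symbols. Kdm1a (LSD1), which removes methyl groups from lysine 4 of histone H3 in the CoREST complex, was the most abundant Kdm gene, at 67.4, 51.6, 60.0 and 72.9 FPKM in Apc_KO libraries, against 38.3, 38.0, 34.3 and 40.5 FPKM in Apc_WT libraries (0.71 ± 0.11, SE, adjusted p = 0.000238). The lowest Apc_KO library was well above the highest Apc_WT library. Kdm2a, a CpG-binding demethylase of lysine 36, was at 53.1, 40.0, 42.5 and 30.2 FPKM in Apc_KO libraries, against 27.4, 23.5, 26.6 and 24.2 FPKM in Apc_WT libraries (0.66 ± 0.14, adjusted p = 0.00203). Kdm5b, a JARID1 demethylase of lysine 4, was at 21.1, 11.6, 13.9 and 18.1 FPKM in Apc_KO libraries, against 10.8, 9.47, 9.68 and 10.1 FPKM in Apc_WT libraries (0.61 ± 0.15, adjusted p = 0.00564). For both, the group ranges were separate, and Apc_KO replicate 1 was the highest library.

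Of the 5 tested Kdm3 and Kdm4 genes, which encode demethylases of lysine 9, 4 were called higher in Apc_KO than in Apc_WT. These were Kdm3a, Kdm4a, Kdm4b and Kdm4c, beside 27.9% of all symbols, and Kdm3b was not called (adjusted p = 0.103). Other genes whose products act on lysine 9 were not in this count. Only 1 of the 4 calls was left under each rescaling, Kdm4b with size factors and Kdm3a under quantile normalization. Kdm4b had the largest change of the family (0.73 ± 0.21, adjusted p = 0.0136), at 15.4, 7.24, 8.29 and 15.9 FPKM in Apc_KO libraries, against 6.34, 5.99, 6.43 and 6.43 FPKM in Apc_WT libraries. Apc_KO replicates 1 and 4 were the highest libraries, and replicates 2 and 3 lay just above Apc_WT. Without replicates 1 and 4, Kdm4b kept the call that quantile normalization ended, and the calls for Kdm3a, Kdm4a and Kdm4c were lost. Leaving out Apc_WT replicate 3 also ended the calls for Kdm3a and Kdm4a, and leaving out Apc_WT replicate 2 that for Kdm4a. Kdm8 was at 4.92, 7.48, 6.19 and 3.96 FPKM in Apc_KO libraries, against 3.53, 3.25, 4.07 and 3.64 FPKM in Apc_WT libraries, with overlap (0.50 ± 0.16, adjusted p = 0.0234), a call that ended when Apc_WT replicate 1, Apc_WT replicate 2, Apc_KO replicate 2 or Apc_KO replicate 3 was left out. The locus labelled Kdm6b,Tmem88 was at 43.5, 48.7, 41.0 and 61.2 FPKM in Apc_KO libraries, against 30.8, 32.4, 33.1 and 41.8 FPKM in Apc_WT libraries (adjusted p = 0.0231), a value that belongs to its neighbours.

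None of the 5 Kmt2 genes, which methylate lysine 4 of histone H3 in COMPASS-like complexes or, for Kmt2e, act as a reader, was called by limma, and 1 had an unadjusted p under 0.05, as did 52.0% of all symbols. Kmt2b, the most abundant, was at 32.8, 19.4, 24.3 and 30.4 FPKM in Apc_KO libraries, against 20.8, 18.9, 21.4 and 19.5 FPKM in Apc_WT libraries (0.36 ± 0.15, adjusted p = 0.0606). Kmt2d averaged 15.6 ± 5.63 FPKM in Apc_KO and 13.5 ± 2.30 FPKM in Apc_WT, and Kmt2c averaged 6.43 ± 2.28 FPKM in Apc_KO and 8.02 ± 1.16 FPKM in Apc_WT (SD, n = 4 each). For Kmt2c and Kmt2d, the SD over Apc_KO libraries exceeded the difference between the group means. Kmt2c (-0.33 ± 0.20, adjusted p = 0.200) was called lower without Apc_KO replicate 1 and with the trend of each library with transcript length removed. Against Apc_HET it was at -0.51 ± 0.20 (adjusted p = 0.0562), and several alternatives called it, among them quantile normalization and the replicate block.

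Of the acetyltransferases, Kat2a (GCN5) was at 31.2, 33.1, 34.0 and 36.8 FPKM in Apc_KO libraries, against 23.1, 25.5, 26.4 and 22.5 FPKM in Apc_WT libraries, with separate ranges (0.45 ± 0.09, adjusted p = 0.00165). Its paralogue Kat2b (PCAF) was at 12.2, 9.27, 11.8 and 8.78 FPKM in Apc_KO libraries, against 9.63, 9.90, 8.88 and 9.49 FPKM in Apc_WT libraries, and was not called (0.12 ± 0.12, adjusted p = 0.421). Kat5 (TIP60) was at 29.3, 26.2, 24.7 and 40.3 FPKM in Apc_KO libraries, against 20.5, 24.0, 20.4 and 24.2 FPKM in Apc_WT libraries, and its call (adjusted p = 0.0455) was lost in 17 of 26 alternatives, among them the omission of any 1 library except Apc_HET replicate 3 or Apc_KO replicate 2 or 3. Kat6a, Kat6b, Kat7 and Kat8 were not called.

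Partners of these families outside the symbol rule were counted in lists. Of 17 other BAF and PBAF subunits tested, 4 were called higher and 2 lower in Apc_KO than in Apc_WT, with Brd7, a PBAF bromodomain protein, at 1.05 ± 0.11 and Dpf3, a subunit of muscle and nerve, at -1.44 ± 0.21 on the log2 scale. Of 7 NuRD partners, 2 were called higher, Mta1 at 0.76 ± 0.09 and Rbbp7 at 0.52 ± 0.13. Of 15 subunits of deacetylase corepressor complexes, 5 were called higher and 1 lower, with Rcor2, a CoREST partner of Kdm1a, at 1.59 ± 0.15 and Tbl1xr1 at -0.77 ± 0.15. Of 16 genes of the ISWI, INO80, SRCAP and EP400 remodelers, 5 were called higher and 0 lower. COMPASS subunits and related lysine 4 methylation genes gave 1 call in 15, Smyd3 at 0.42 ± 0.13.

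Among 17 other lysine and arginine methyltransferases, 6 were called higher and 0 lower, with Prmt6, an arginine methyltransferase of histone H3, at 1.88 ± 0.12 and Prmt2 at 1.18 ± 0.14. Among 23 other acetyltransferase genes and partners, 5 were called higher and 1 lower, with Tada2a, an adaptor of Kat2a, at 1.42 ± 0.17 and Brpf3 at -0.93 ± 0.14. Of 4 BET readers, Brdt at 1.19 ± 0.25 and Brd2 at 0.36 ± 0.11 were called higher. Of 4 genes under older symbols of the families, Jhdm1d, a demethylase, was called higher at 0.55 ± 0.21 (SE, adjusted p = 0.0465). Set against the 27.9% of all symbols called higher, these lists lay on both sides of the background.

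Against Apc_HET, Apc_KO cells gave 21 members called higher, 5 called lower and 46 not called, where 22.8% of all symbols were called higher and 18.9% lower. The members' shares were 29.2% and 6.94%, and their median log2 fold change was 0.12, against 0.04 over all symbols. Both comparisons with Apc_KO share the Apc_KO libraries. Arid5a (3.29 ± 0.31, SE, adjusted p = 3.97e-06), Hdac7 (1.87 ± 0.23, adjusted p = 4.62e-05) and Chd6 (0.73 ± 0.15, adjusted p = 0.00184) again had the largest rises. Chd6 was at 10.7, 12.3, 13.1 and 11.3 FPKM in Apc_HET libraries, all below the Apc_KO values given above. The 5 called lower were Smarca1, Sirt3, the Hdac10 locus, Hdac11 and Smarcd2. Sirt3 was at 16.7, 15.1, 14.3 and 16.4 FPKM in Apc_HET libraries and fell by 0.48 ± 0.15 in Apc_KO (adjusted p = 0.0224), a call lost without Apc_HET replicate 1 or 4 or Apc_KO replicate 3. The calls for Hdac11 (-0.25 ± 0.09, adjusted p = 0.0397) and Smarcd2 (-0.28 ± 0.10, adjusted p = 0.0498) were lost without most single libraries. The Hdac10 locus was at 19.1, 20.1, 17.0 and 17.2 FPKM in Apc_HET libraries and fell by 0.38 ± 0.09 in Apc_KO (adjusted p = 0.00598). Without Apc_HET replicate 1, and likewise without replicate 4, 14 members were called higher and 2 lower. The share of members called higher was then 19.4%, and that of all symbols 19.5% without replicate 1 and 19.2% without replicate 4, so the members no longer exceeded the background.

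Against Apc_WT, Apc_HET cells gave 0 called members of 72 and 0 called symbols of 12962 by limma. At an unadjusted p under 0.05 there were 4 members and 561 symbols, 4.33% of all tested. The estimates were nonetheless mostly positive, for 67 of 72 members and 8652 of 12962 symbols, with medians of 0.16 and 0.07. With size factors the medians were 0.09 and 0.01, and 55 of 72 members and 6698 of 12962 symbols were positive. With the trend of each library with transcript length removed, the medians were 0.09 for the members and 0.06 for 11325 symbols with a length. In that fit 67 of 72 members and 7557 of the 11325 symbols were positive. Groups did not overlap for 11 members higher in Apc_HET and 0 lower, where 5.46% of all symbols were higher without overlap and 0.617% lower. Among these 11 were Kdm1a, at 42.0 to 48.1 FPKM in Apc_HET libraries and 34.3 to 40.5 FPKM in Apc_WT libraries, and Arid4a, at 16.0, 17.2, 17.7 and 15.4 FPKM in Apc_HET libraries and 15.2, 13.6, 12.9 and 13.1 FPKM in Apc_WT libraries. Chd1 was at 17.3, 18.3, 19.7 and 16.3 FPKM in Apc_HET libraries, against 15.3, 11.9, 16.7 and 12.4 FPKM in Apc_WT libraries (0.34 ± 0.15, adjusted p = 0.987), with a small overlap.

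**Figure D3:**
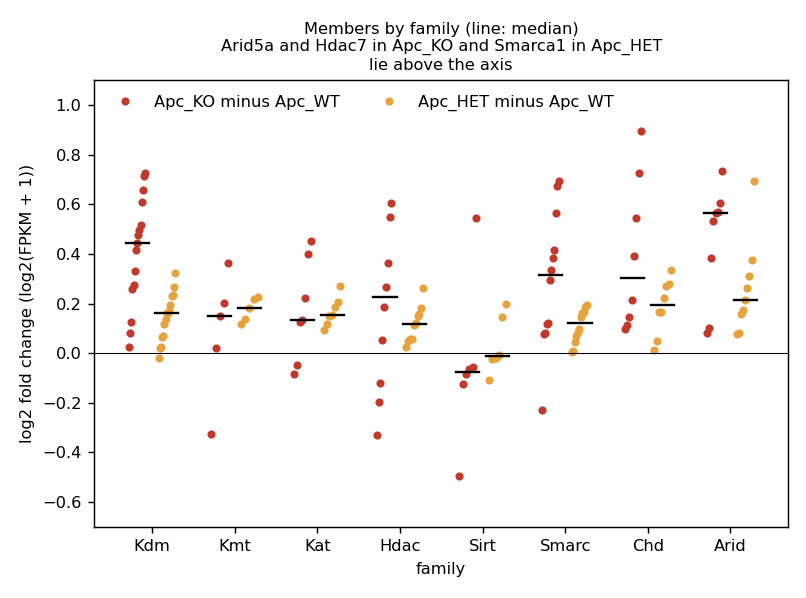
Log2 fold change on the log2(FPKM + 1) scale of each tested member by family, for Apc_KO minus Apc_WT on the left and Apc_HET minus Apc_WT on the right of each pair, with a line at the median. The Apc_HET points cluster between -0.11 and 0.37 apart from Arid5a and Smarca1, with none called, and the Apc_KO medians of Arid and Kdm stand highest at 0.56 and 0.45.

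The 3′ stretch of Smarca1, the X-linked ISWI ATPase SNF2L, had the largest difference between Apc_HET and Apc_WT. It was at 0.709, 1.29, 1.56 and 0.737 FPKM in Apc_KO libraries, 6.96, 16.2, 13.7 and 1.03 FPKM in Apc_HET libraries and 0.208, 0.349, 1.32 and 2.28 FPKM in Apc_WT libraries. Apc_HET replicates 1 to 3 were above all other libraries, and replicate 4 lay within the range of Apc_WT. The log2 fold change of Apc_HET against Apc_WT was 2.09 ± 0.57 (SE, adjusted p = 0.987). Without Apc_HET replicate 4 it was 2.75 ± 0.37 (adjusted p = 0.0391), the only member called in that fit. For Apc_KO against Apc_HET it was called lower, at -1.97 ± 0.57 (adjusted p = 0.0150).

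The members include Kdm5d, the demethylase of the Y chromosome, and 5 tested X-linked genes. The long noncoding RNA Xist, which silences 1 X chromosome in female cells, was at 61.4 FPKM in Apc_HET replicate 1 and 33.4 FPKM in Apc_WT replicate 2, and at 0.161 FPKM or less in the other 10 libraries. Kdm5d was detected in every library, at 8.11, 6.47, 9.39 and 6.70 FPKM in Apc_KO, 3.06, 8.93, 9.42 and 10.5 FPKM in Apc_HET and 8.79, 5.48, 8.69 and 7.31 FPKM in Apc_WT. Its lowest values were in the 2 libraries with Xist, so that both libraries held Xist and Y-linked RNA. Kdm6a, a demethylase of lysine 27 that escapes X inactivation, was at 15.4, 13.8, 13.8 and 9.02 FPKM in Apc_KO, 16.9, 11.4, 13.8 and 11.4 FPKM in Apc_HET and 10.8, 11.5, 9.65 and 9.69 FPKM in Apc_WT, with the Xist library the highest within Apc_HET and within Apc_WT. Without both libraries, 21 members were called higher and 0 lower in Apc_KO against Apc_WT (the Sirt3 and Hdac10 calls were lost), and 12 higher and 2 lower in Apc_KO against Apc_HET. The members called higher made 29.2% against Apc_WT, where 22.6% of all symbols were called higher, and 16.7% against Apc_HET, below the 18.1% of all symbols.

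**Figure D4:**
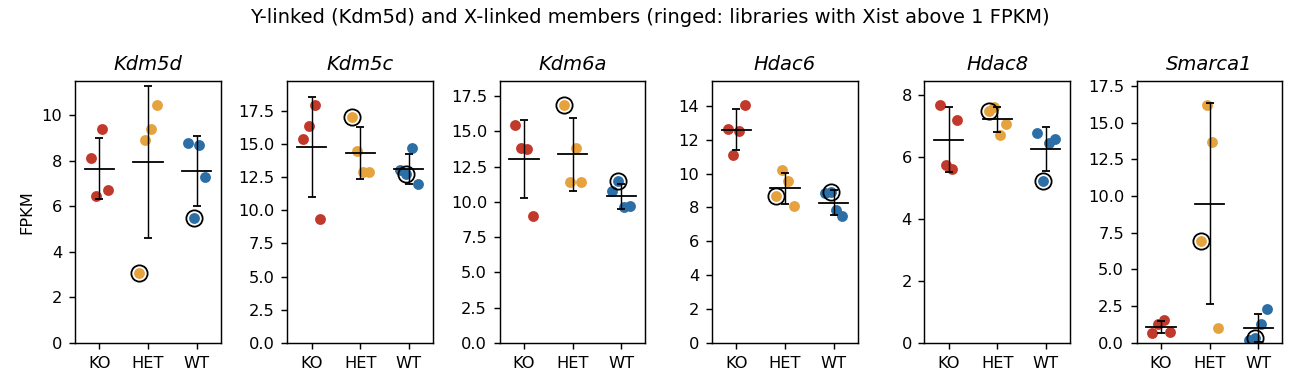
FPKM per library of the Y-linked member Kdm5d and the 5 tested X-linked members, with Apc_KO, Apc_HET and Apc_WT from left to right, lines for means and bars for SD (n = 4 each). Rings mark the 2 libraries with Xist above 1 FPKM, which have the lowest Kdm5d (3.06 and 5.48 FPKM); Smarca1 is high in 3 Apc_HET libraries.

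Within Apc_KO the members varied with transcript length. Across the 72 members, Spearman's rho between transcript length (longest protein-coding transcript) and the deviation of a library from its group mean was 0.59, -0.23, 0.44 and -0.58 in Apc_KO replicates 1 to 4, and across all symbols with a length it was 0.42, -0.04, 0.35 and -0.55. These are descriptions across genes of 1 library, which are not independent. For the 16 members longer than 8000 bases, among them Kmt2a, Kmt2b, Kmt2c and Kmt2d, the median deviation was 0.31 in Apc_KO replicate 1 and -0.44 in replicate 4. The lengths are those of whole transcripts, also where the measured locus was short. Such loci were Arid1b (529 bases, counted among the long members), Smarca1 (1726 bases) and Kdm6b,Tmem88 (1201 bases). For the 17 members shorter than 3000 bases, it was -0.13 in Apc_KO replicate 1 and 0.25 in replicate 4. In Apc_WT, rho over the members ran from -0.48 to 0.63, with median deviations of the long members between -0.14 and 0.13. The fold changes of Apc_KO against Apc_WT had a rho of 0.06 with length, and those of Apc_HET against Apc_WT had 0.41 (n = 72 members each). With the length trend of each library removed, 33 members were called higher and 3 lower in Apc_KO against Apc_WT, which was 45.8% of members higher beside 32.2% of all symbols.

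**Figure D5:**
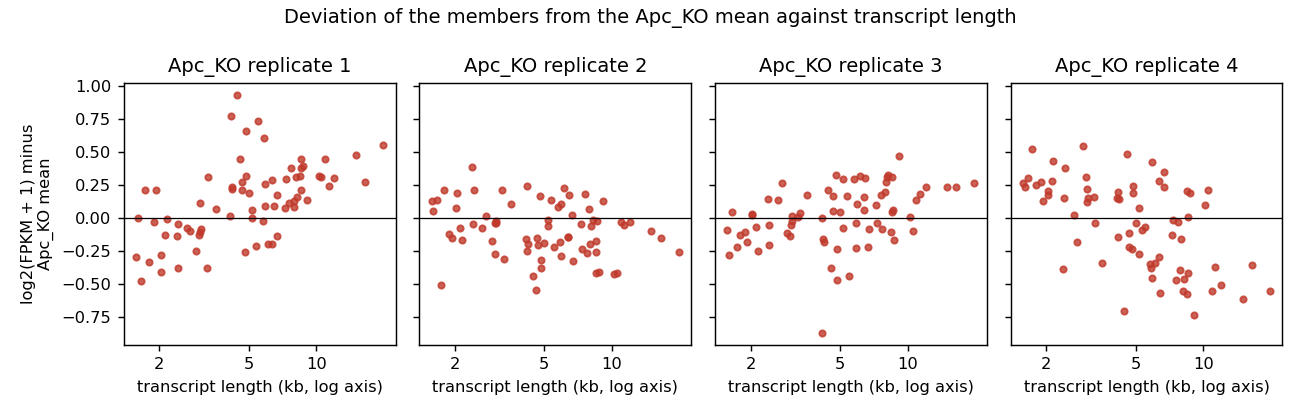
Deviation of each tested member from its Apc_KO mean, on the log2(FPKM + 1) scale, against the length of its longest protein-coding transcript in kb (log axis), in Apc_KO replicates 1 to 4. Long members lie above 0 in replicates 1 and 3 and below 0 in replicate 4, with rho of 0.59, 0.44 and -0.58.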

How the data were processed

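Total RNA of sorted Lgr5-GFP+ cells was sequenced in 12 libraries. The authors deposited FPKM per assembled locus, per the file headers, 1 table for each library, with loci that can differ between genotypes; Cuffdiff, Cufflinks, TopHat and Bowtie, without versions, and the build mm10 (GRCm38) appear in the submitters' processing notes, and further steps are not given in the sources used here. FPKM depends on the locus length the assembler chose, read counts are not given, and no interval from depth can be had. Loci of a symbol were summed (2693 symbols). Of 14499 symbols, 295 whose loci differed between the tables and 122 with a failed estimate were left out, and 12962 had at least 1 FPKM in at least 4 libraries. Libraries were grouped by the labels' genotype.

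The test was that of limma 3.58.1 under R 4.3.3 (lmFit, contrasts.fit, eBayes with a trend) on log2(FPKM + 1), in 1 fit of all libraries, two-sided, with Benjamini-Hochberg adjustment over all 12962 symbols within each of 3 comparisons. A member was called at an adjusted p under 0.05. Fold changes on this scale understate those of low genes. The script was tested on simulated data. Values per library are given for up to 4 called members per direction and family of largest change in Apc_KO against Apc_WT, the most abundant member of each family, the 3 largest of each direction against Apc_HET, the 3 of smallest p in Apc_HET against Apc_WT, and named paralogues. Members, lists and rules were chosen with earlier results of these data known. Promoter windows are RefSeq's (GRCm38.p6), and transcript lengths are GENCODE's. Alternatives were another pseudocount and filter, size factors, quantile normalization, other fits, leaving out each library, a replicate block, and, added after seeing the data, the highest locus, loci of at least 80% of the gene, both libraries with Xist left out, Apc_KO replicates 1 and 4 left out, and a length correction.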

Additional observations from a re-analysis of the deposited data

Results flagged for a closer look

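Of 123 groups of 4 libraries, for 41 members, 9 had a library whose gap to its nearest neighbour passed Dixon's criterion at the 95% level, where chance gives about 1 in 20. In Apc_KO replicate 4, Smarce1 was high at 94.2 FPKM, the Hdac10 locus (Hdac10,Tubgcp6) was high at 15.5 FPKM and Arid5b was low at 15.2 FPKM. In Apc_HET replicate 4, Kdm2a was high at 28.9 FPKM and Arid3a was high at 0.643 FPKM. In Apc_WT libraries, Hdac1 was high in replicate 4 at 32.7 FPKM, Sirt1 was low in replicate 3 at 33.3 FPKM, Chd1l was high in replicate 3 at 14.5 FPKM and Smarce1 was high in replicate 2 at 42.3 FPKM. The cause of these gaps was not tested.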

How the results depend on the processing

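For Apc_KO against Apc_WT, size factors gave 20 members called higher and 4 lower, and leaving out both libraries with Xist gave 0 lower. Of 49 members with a single locus, 24 were called higher (49.0%, beside 28.0% of such symbols) and 1 lower. In that setting no call was lost, and 9 called members were not tested. Leaving out 1 library at a time gave 21 to 33 higher and 1 to 3 lower, the fewest without Apc_WT replicate 2. For Apc_KO against Apc_HET, 12 were higher without both Xist libraries (16.7% of members, 18.1% of all symbols) and 19 with the length trend removed (26.4% and 27.0%), and the 5 lower members became 3 with the filter of 5 FPKM, in the fit of the compared genotypes alone, with no trend or with the highest locus, 2 with single-locus symbols or without both Xist libraries, 8 with library weights and 9 with the length trend removed. In this comparison single-locus symbols lost no call and left 10 called members untested, and the filter of 5 FPKM left 3 untested. Leaving out 1 library at a time gave 14 to 21 higher and 2 to 5 lower. For Apc_HET against Apc_WT, it gave 0 to 1 higher. The median fold changes of the members kept their sign in all alternatives run.

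Signs turned for uncalled members of Apc_KO against Apc_WT. Sirt1 was at 0.21 with the highest locus and ran from -0.43 to 0.11 when 1 library was left out, Arid1a from -0.00541 to 0.26, Smarca1 from -0.0881 to 0.39 and Smarca2 from -0.0645 to 0.17. Quantile normalization put Smarca1 at -0.18, Arid4a at -0.0175, Smarca2 at -0.0130 and Kat2b at -0.00100. Size factors put Arid4a at -0.0129 and Smarca2 at -0.0185, and library weights put Smarca2 at -0.14. Smarca1 was at -0.0353 without both Xist libraries. Without Apc_KO replicates 1 and 4, Smarca2 was at -0.18 and Smarcd3 at -0.0695. The cause was not tested.

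Same-numbered libraries of different genotypes deviated with correlations between -0.20 and 0.18, so the numbers are not taken as pairs. With a replicate block, 29 members were higher and 2 lower in Apc_KO against Apc_WT, and 19 and 4 against Apc_HET. Depth limits the low members, such as Arid3a and Smarca1.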
